A study of Mus musculus with 44 samples.

Results

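The libraries described here hold nuclear RNA of hepatocytes from the control mice of 2 diet experiments. They were chosen by their labels alone (hepatocyte nuclei, control diet) and number 8 of the 44 libraries in the series. All mice were male HEP-INTACT animals, in which a tag on the nuclear envelope lets hepatocyte nuclei be pulled from a liver homogenate on beads (the INTACT method). The promoter that drives the tag is not given in the sources used here. One control group of 4 mice (FPC_6816, FPC_6852, FPC_6952 and FPC_6953, study code and animal number) ate a low-fat diet for 20 weeks beside mice given the FPC diet, and the other 4 mice (CDA_9862, CDA_9867, CDA_10110 and CDA_10113) ate it for 7 weeks beside mice given the choline-deficient, high-fat CDAHFD diet. Study, diet duration, the mice's age and any batch of the 2 experiments run along the same line and cannot be told apart. "20-week" and "7-week" below name the groups and no cause. Whole liver nuclei of the same 8 animals, sequenced separately, served as a second look.

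Hepatocytes make much of the cholesterol and plasma protein and all of the primary bile acids of the body and clear drugs and other foreign compounds. Cholesterol synthesis and uptake are driven by the transcription factor SREBP2, which is activated when sterols in the cell run low. Drug clearance begins with oxidation by cytochromes P450, continues with conjugation by glutathione, glucuronosyl and sulfo transferases and ends with export, and nuclear receptors such as PXR and CAR induce many of these genes. As the libraries hold nuclear RNA with introns counted, the values follow RNA in the nucleus, not the cytoplasmic pool.

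The hepatocyte libraries held 20739832 to 25369777 counts in the 20-week group and 17726999 to 28217241 counts in the 7-week group. Expression is given as CPM, counts scaled to a common library total by edgeR's TMM factors. Albumin stood at 2543 ± 818 CPM (SD, n = 4) in the 20-week and 2112 ± 342 CPM in the 7-week mice, and Hnf4a, a hepatocyte transcription factor, at 461 ± 56.2 and 464 ± 68.4 CPM. A list of 19 measured hepatocyte markers summed to between 16949 and 27339 CPM at 20 weeks and between 17021 and 24994 CPM at 7 weeks, with 1 of the 19 called. An endothelial list of 18 genes summed to between 87.9 and 139 CPM at 20 weeks and between 85.3 and 130 CPM at 7 weeks, against 1011 to 1407 and 1013 to 1287 CPM in whole liver. Hepatocyte markers thus led in both groups and endothelial markers were far lower than in whole liver. Of 16 endothelial markers tested in hepatocyte nuclei, 0 were called and 14 had a positive value, against 5571 of all 11998 tested genes. Their median log2 fold change was 0.55 in hepatocyte nuclei, and that of the list in whole liver was 0.09. Kupffer cell and macrophage markers (13 genes) summed to between 82.8 and 156 CPM at 20 weeks and between 41.3 and 91.2 CPM at 7 weeks in hepatocyte nuclei, with 0 of 12 tested members called and a median log2 fold change of 0.42. In whole liver the same list gave 313 to 448 and 312 to 390 CPM. The sum of cholangiocyte markers (12 genes) was near its whole liver level and separated the groups. It was 465 to 513 CPM at 20 weeks and 350 to 448 CPM at 7 weeks, against 486 to 519 and 416 to 516 CPM in whole liver. The single markers did not follow as a set: of 8 tested, 4 had a positive value, with a median log2 fold change of 0.005. Of the 8, 1 separated fully with the 20-week mice above, against 6.08% of all tested genes. The sum of stellate cell and fibroblast markers (14 genes) leaned the other way, with 64.2 to 104 and 85.7 to 189 CPM. In whole liver it was 313 to 365 and 379 to 475 CPM. Of the 12 tested in hepatocyte nuclei, 5 had a positive value, and the median log2 fold change was -0.06. Mesothelial markers (5 genes) summed to 5.88 to 8.53 and 4.48 to 5.71 CPM and lymphocyte markers (16 genes) to 6.61 to 8.76 and 3.16 to 6.8 CPM. In these 4 lists 0 of 24 tested genes were called. Over all tested genes 1.53% were called, the share to set beside each count of calls in this paragraph. The part of these cells in the results was not tested. Fewer nuclei of a cell type and less RNA per nucleus cannot be told apart in such libraries. Neutrophil markers (7 genes) summed to at most 0.978 CPM, with S100a8 and Retnlg at 0. Erythroid markers (7 genes) summed to 34.1 to 37.7 and 17.5 to 38.3 CPM in hepatocyte nuclei and to 34.3 to 38.2 and 19.8 to 35.9 CPM in whole liver, with Hba-a1, Hba-a2 and Hbb-bs at 0 in hepatocyte nuclei.

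Between the groups, 184 of the 11998 genes tested in hepatocyte nuclei (1.53%) passed an adjusted p of 0.05 in edgeR's quasi-likelihood test with Benjamini-Hochberg adjustment, which is what "called" means below. At 20 weeks 140 genes were higher (1.17%) and 44 lower (0.367%), and 99 (0.825%) and 23 (0.192%) of these differed at least 2-fold. The 4 mice of one group all lay above the 4 of the other for each of the 184. Such a separation was common without a call: 6.08% of all tested genes separated fully with the 20-week mice above and 6.83% with them below. The first principal component of the 8 libraries, with 34.3% of the variance, ran from 11.6 to 26.2 in the 20-week mice and from -42.5 to -11.2 in the 7-week mice, so the groups did not overlap on it. The number of calls depended on single mice: it was 67 without mouse FPC_6852, 81 without FPC_6816, 97 without FPC_6952, 99 without CDA_9867 and 106 without FPC_6953, and 56 of the 184 calls held in all 8 fits that left out 1 mouse. DESeq2 called 955 genes on the same libraries, the 184 among them, 4.54% of the tested genes being higher and 3.42% lower.

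Cholesterol synthesis and uptake genes were higher in the 20-week mice. Of 24 listed genes, 10 rose and 0 fell, against 1.17% of all tested genes that rose, and the median log2 fold change was 1.20 against -0.03 for all genes. All 24 had a positive value, against 5571 of all 11998 tested genes, and 20 separated fully with the 20-week mice above, against 6.08%. The list was chosen with earlier results of these data known. DESeq2 called 21 of them higher, against 4.54% of all tested genes. The edgeR count was 4 without mouse FPC_6852 and 14 without mouse CDA_9862. In whole liver nuclei 8 of the 24 were called higher, against 0.861% of all tested genes, with a median of 1.31.

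**Figure D1:**
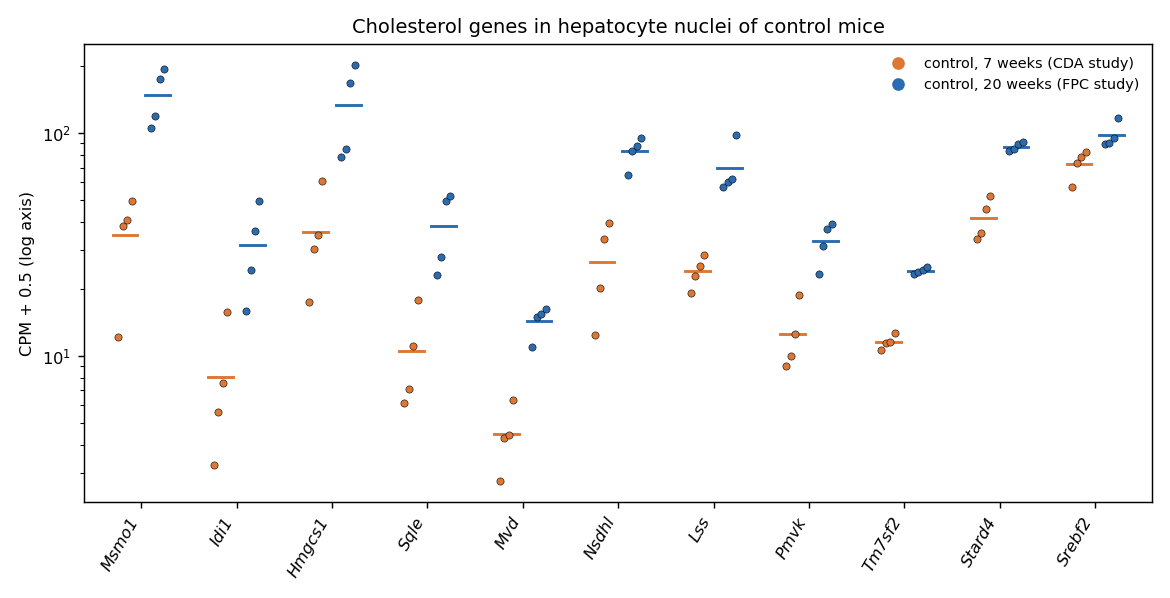
CPM plus 0.5 (log axis) of 11 of the 24 listed cholesterol genes, those described by name, in each of the 8 control mice, ordered by log2 fold change, with horizontal lines at the group means. The 20-week points lie above all 7-week points for each of the 11 genes, called or not.

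Among the synthesis enzymes, 7 of 19 were called higher, against 1.17% of all tested genes. Tm7sf2, a sterol reductase, varied little within the groups: 23.3, 23.8, 24.5 and 22.9 CPM against 11, 12.2, 10.1 and 10.9 CPM in the 7-week mice (log2 fold change 1.09 ± 0.10, edgeR adjusted p = 0.002). The 2 groups did not overlap, and the call held in all 8 fits without 1 mouse. Lss, which closes the sterol ring, had 56.7, 60.1, 97.7 and 61.9 CPM at 20 weeks and 22.3, 27.9, 24.8 and 18.7 CPM at 7 weeks (1.56 ± 0.20 on the log2 scale, edgeR adjusted p = 0.0084). Every 20-week mouse had over 2 times the Lss level of any 7-week mouse, and this call also held in all 8 fits. Mvd and Pmvk of the mevalonate branch and Nsdhl and Msmo1 of sterol demethylation had log2 fold changes of 1.81, 1.41, 1.67 and 2.10. Of these, Msmo1 (edgeR adjusted p = 0.046) was lost in 7 of the 8 fits without 1 mouse, Pmvk and Nsdhl in 6 and Mvd only without mouse FPC_6852. Sqle, squalene epoxidase, did not pass: its 20-week mice had 22.5 to 51.7 CPM and its 7-week mice 5.67 to 17.3 CPM (1.90 ± 0.41, edgeR adjusted p = 0.063). Idi1 and Hmgcs1 likewise had log2 fold changes of 2.03 and 1.91 without a call.

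Regulators and uptake genes gave 3 higher calls of 5, against 1.17% of all tested genes. Stard4, a sterol carrier, had 82.5, 83.8, 90.8 and 88.3 CPM at 20 weeks and 45.4, 35.2, 51.5 and 32.9 CPM at 7 weeks, without overlap (1.07 ± 0.15, edgeR adjusted p = 0.01), and held in all 8 fits. Srebf2 itself, the gene of SREBP2, had 97.1 ± 12.8 against 72.2 ± 10.7 CPM (0.43 ± 0.14, edgeR adjusted p = 0.14).

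Of 16 tested fatty acid synthesis genes, 2 were called higher and 0 lower, against 1.17% of all tested genes called higher, and the list median was -0.18. Acss2, which makes acetyl-CoA from acetate, had 569, 487, 715 and 427 CPM at 20 weeks and 112, 146, 138 and 98.3 CPM at 7 weeks. Each 20-week mouse had more than 2.5 times the Acss2 level of any 7-week mouse (log2 fold change 2.15 ± 0.20, edgeR adjusted p = 0.002, held in all 8 fits). Gpam, which starts triglyceride assembly, was at 554 ± 112 against 267 ± 20.7 CPM (1.06 ± 0.15, edgeR adjusted p = 0.014). Fasn, Srebf1 and Scd1 had log2 fold changes of -0.25, -0.47 and 0.96, none of them called, and mouse CDA_10113 alone held the highest Fasn value, 1080.1 CPM. Pparg, a lipid-storage regulator, was called higher (91.6 ± 25 against 36 ± 12.1 CPM, 1.35 ± 0.26, edgeR adjusted p = 0.042) but held in 1 of 8 fits without 1 mouse. Cd36 and Mogat1, a fatty acid importer and a glyceride synthase, had log2 fold changes of 2.93 and 2.83 with edgeR adjusted p of 0.072 and 0.078.

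Genes of drug and xenobiotic metabolism formed the other group that was higher at 20 weeks. Of 25 listed genes tested, 7 rose and 0 fell, against 1.17% of all tested genes that rose. A positive value was found for 24, against 5571 of all 11998 tested genes, and the median was 1.22. In whole liver 7 of 25 were called higher, against 0.861% of all tested genes, with a median of 1.16. The counts ranged from 3 to 6 in the fits without 1 mouse, and leaving out mice CDA_9862 and CDA_9867 together left 0 of the 25. The nuclear receptors that induce such genes were not called: Nr1i2 (PXR) stood at 220 ± 27.4 against 218 ± 117 CPM, Nr1i3 (CAR) at 114 ± 53 against 96.2 ± 13.9 CPM and Ahr at 117 ± 35.4 against 97 ± 38.7 CPM. Cyp1a2, a target of the aryl hydrocarbon receptor, had 60.4 ± 16.7 against 56.7 ± 33 CPM.

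**Figure D2:**
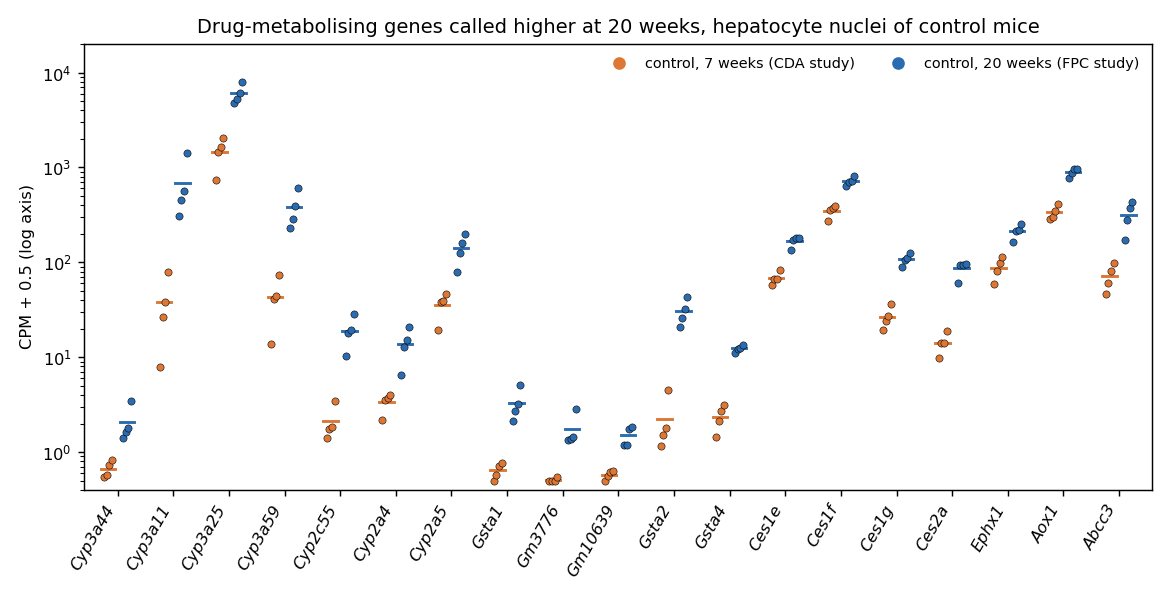
CPM plus 0.5 (log axis) of 19 drug-metabolising and transport genes called higher at 20 weeks, in each of the 8 control mice, with lines at the group means. These genes were picked for the plot after their values were seen. The 2 groups do not overlap for any of them.

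Of the listed cytochromes P450, 16 were tested and 5 called higher, against 1.17% of all tested genes. Not every P450 gene named below was on the list. Cyp3a11, the main steroid and drug oxidase of the mouse Cyp3a family, had 453, 559, 306 and 1403 CPM at 20 weeks and 7.42, 25.7, 38 and 78.9 CPM at 7 weeks. The groups were far apart but both spread widely, and the log2 fold change was 4.18 ± 0.77 (edgeR adjusted p = 0.04). That call was lost in 7 of the 8 fits without 1 mouse and remained only without mouse CDA_9862. Of 6 Cyp3a genes tested, 4 were called: Cyp3a44, Cyp3a11, Cyp3a25 and Cyp3a59, with log2 fold changes from 2.04 to 4.18. They were the only genes tested between positions 145773983 and 146113283 of chromosome 5 (mm10). That stretch was set by its outermost called genes, so its ends were called by construction. Cyp3a25 was the most abundant, at 6033 ± 1422 against 1468 ± 552 CPM. Cyp3a13, which lies elsewhere on that chromosome, had 196 ± 30.8 against 117 ± 36.1 CPM and was not called. Cyp2c55 went from 1.61 ± 0.899 CPM at 7 weeks to 18.5 ± 7.39 CPM at 20 weeks (3.51 ± 0.43, edgeR adjusted p = 0.0077, held in all 8 fits). Cyp2a4 and Cyp2a5, steroid and coumarin hydroxylases, had log2 fold changes of 2.22 and 2.0. Cyp2a4 and Cyp2a5 held in 2 of the 8 fits without 1 mouse, Cyp3a44 in 1, Cyp3a59 in 3 and Cyp3a25 in 6. Cyp2b10, the classic CAR target, did not pass (edgeR adjusted p = 0.097): mouse FPC_6816 had 12.3 CPM, the other 20-week mice 0.517 to 0.978 CPM and the 7-week mice at most 0.159 CPM. Genes within the Cyp3a family, and within the Cyp2a family, are related in sequence, and how reads that match several genes were assigned is not given in the sources used here.

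Of the listed conjugation enzymes, 5 were tested and 2 called higher, against 1.17% of all tested genes. These were Gsta1 and Gsta2, which attach glutathione. The 5 alpha-class genes tested between positions 78191966 and 78347145 of chromosome 9 (mm10), Gsta4, Gsta1, Gm3776, Gm10639 and Gsta2, were all called higher, with log2 fold changes from 2.70 to 6.38. This stretch, too, was set by its outermost called genes. Gsta2 had 42.2, 25.6, 31.4 and 20.3 CPM at 20 weeks and 1.31, 1.02, 4.02 and 0.656 CPM at 7 weeks (4.15 ± 0.53, edgeR adjusted p = 0.0093). Gsta4, which clears lipid peroxidation products, varied little within the groups, with 11.9 ± 0.984 against 1.85 ± 0.72 CPM (2.70 ± 0.27, edgeR adjusted p = 0.002). Gsta1 was at 2.8 ± 1.31 against 0.142 ± 0.124 CPM. Gm3776 had 121 counts over the 4 20-week libraries and 1 count over the 4 7-week libraries, a ratio of 129 with an exact 95% interval from 22.7 to 5129 that covers counting error only.

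The start regions of these genes show how alike the copies are. Each line holds the bases from 250 before to 50 after the gene's start (RefSeq, GRCm38.p6, 5′ to 3′ on the gene's strand), in lower case, with capitals where a base does not match Gsta1 in a pairwise alignment. The windows are offset against each other, and bases past the end of the Gsta1 window (the first 13 of Gm3776 and the last 5 of Gsta2) were not compared and stay in lower case. Gsta1 lies at chr9:78230419-78230718 (plus strand), Gm3776 at chr9:78256879-78257178 (plus strand) and Gsta2 at chr9:78347096-78347395 (minus strand).
Gsta1: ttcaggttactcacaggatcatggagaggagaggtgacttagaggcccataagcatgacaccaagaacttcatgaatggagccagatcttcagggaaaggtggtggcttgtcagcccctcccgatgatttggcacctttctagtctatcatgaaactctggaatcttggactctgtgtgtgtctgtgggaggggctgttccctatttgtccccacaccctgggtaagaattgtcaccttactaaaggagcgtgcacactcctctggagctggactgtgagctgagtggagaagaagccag
Gm3776: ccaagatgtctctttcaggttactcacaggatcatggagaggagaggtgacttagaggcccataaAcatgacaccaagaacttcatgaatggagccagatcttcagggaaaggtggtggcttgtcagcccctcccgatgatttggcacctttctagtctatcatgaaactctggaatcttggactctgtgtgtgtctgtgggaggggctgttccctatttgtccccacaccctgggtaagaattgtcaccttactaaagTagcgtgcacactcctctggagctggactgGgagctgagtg
Gsta2: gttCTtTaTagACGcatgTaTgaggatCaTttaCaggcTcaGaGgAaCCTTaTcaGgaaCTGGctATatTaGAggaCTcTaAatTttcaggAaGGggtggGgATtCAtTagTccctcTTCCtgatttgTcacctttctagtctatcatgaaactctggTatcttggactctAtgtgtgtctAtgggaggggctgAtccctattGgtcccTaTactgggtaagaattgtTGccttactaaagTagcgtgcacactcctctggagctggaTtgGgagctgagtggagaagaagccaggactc
Over the shared stretch, Gm3776 matched Gsta1 in 284 of 287 aligned positions and Gsta2 matched it in 232 of 301, or 77.1%. Gm10639 matched Gsta1 in 279 of 287 positions and Gm3776 in 294 of 300. These windows lie mostly before the gene start. The transcribed sequences were not compared, and whether reads were shared among these related genes was not tested. Gsta4 was not in the promoter table.

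Other drug-handling families were counted by symbol after the values were seen, so these counts describe and support nothing further. Over all tested genes 1.17% were called higher in edgeR, the share to set beside each edgeR family count here. Carboxylesterases, which cleave ester drugs and lipids, had 5 of 14 tested genes called higher, and 10 of the 14 had a positive value. DESeq2 called 9 carboxylesterases higher and 1 lower, against 4.54% and 3.42% of all tested genes. Ces2a led, with 92.3, 60.5, 94.2 and 95.4 CPM at 20 weeks and 9.21, 13.5, 18.5 and 13.8 CPM at 7 weeks, so the lowest 20-week mouse stood at over 3 times the highest 7-week mouse (2.64 ± 0.23, edgeR adjusted p = 0.002, held in all 8 fits). Ces1e, Ces1f and Ces1g were called, with log2 fold changes of 1.29, 1.05 and 2.04, and Ces2c had 2.20. The 3 Ces1 genes were the only ones tested between positions 93201218 and 93337209 of chromosome 8, a stretch set by its outermost called genes. Glutathione transferases of all classes had 5 of 19 called (Gsta1, Gsta2, Gsta4, Gstt1 and Gstt3), glucuronosyltransferases 2 of 11 (Ugt2b5 and Ugt2b36), aldehyde dehydrogenases 3 of 17 and sulfotransferases 0 of 7. Ugdh, which makes the glucuronic acid donor, rose from 38.5 ± 4.07 to 120 ± 21.8 CPM (1.64 ± 0.15, edgeR adjusted p = 0.002). Papss2, which makes the sulfate donor, rose from 155 ± 42.3 to 413 ± 53.7 CPM. Ephx1, an epoxide hydrolase, and Aox1, an aldehyde oxidase, had log2 fold changes of 1.28 and 1.42. Of these, Ephx1 held in 3 of the 8 fits without 1 mouse and Aox1 in all 8. Akr1c19, an aldo-keto reductase, had 107 ± 11.9 against 18.5 ± 6 CPM (2.53 ± 0.23, edgeR adjusted p = 0.002). Por, the electron donor of all microsomal P450 enzymes, narrowly missed the threshold at 326 ± 124 against 109 ± 36.9 CPM (edgeR adjusted p = 0.059). Among NRF2 target and metal-response genes, 1 of 15 was called higher, against 1.17% of all tested genes. It was Gsta1, which the xenobiotic list also holds. A positive value was found for 13 of the 15, against 5571 of all 11998 tested genes, and the median was 0.55. The groups separated fully with the 20-week mice above for 5, against 6.08% of all tested genes. DESeq2 called 6 higher and 1 lower, against 4.54% and 3.42%. Nqo1 had 2.05 ± 0.354 against 0.91 ± 0.342 CPM (edgeR adjusted p = 0.084).

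Of 21 tested bile acid genes, 2 transporters rose and 1 synthesis enzyme fell, against 1.17% and 0.367% of all tested genes, and the list median was 0.05. Without mouse FPC_6852, 0 of these calls remained. Abcc3, which exports conjugates to the blood, had 433, 280, 369 and 172 CPM at 20 weeks and 60.5, 46, 97.5 and 80.3 CPM at 7 weeks (2.14 ± 0.32, edgeR adjusted p = 0.017), a call lost without mouse FPC_6852 or FPC_6952. Slco1a4, an uptake transporter, was at 339 ± 23.7 against 123 ± 48.1 CPM (1.47 ± 0.26, edgeR adjusted p = 0.033, held in 2 of 8 fits). Hsd3b7, an early enzyme of bile acid synthesis, fell from 164 ± 11.1 to 107 ± 7.82 CPM (-0.61 ± 0.09, edgeR adjusted p = 0.017), lost without mouse FPC_6816 or FPC_6852. Cyp7a1, the rate-limiting enzyme, had 132, 116, 41.5 and 199 CPM against 37, 42, 49 and 42.4 CPM. For Cyp7a1, 3 of the 20-week values lay above all 7-week values and mouse FPC_6952 lay among these, and the difference did not pass (1.52 ± 0.39, edgeR adjusted p = 0.092).

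Genes that were lower at 20 weeks were fewer and mostly fell outside the lists. Lepr, the leptin receptor gene (chr4:101717407-101815354, mm10), had 1.78, 1.26, 0.795 and 1.07 CPM at 20 weeks and 13.9, 2.91, 11.4 and 12.5 CPM at 7 weeks. One 7-week mouse, CDA_9867, lay well under the other 3 but above the 20-week mice (-3.04 ± 0.49, edgeR adjusted p = 0.022), and the call was lost without any one of the 4 20-week mice. 4930452B06Rik fell from 36.7 ± 4.41 to 7.49 ± 2.2 CPM (-2.30 ± 0.22, edgeR adjusted p = 0.002) and held in all 8 fits. Jazf1, a transcriptional cofactor gene, had 26, 19.9, 28.8 and 26.6 CPM against 90.7, 130, 49.5 and 171 CPM: the 20-week values were tight and the 7-week values spread more than 3-fold (-2.12 ± 0.34, edgeR adjusted p = 0.022, held in 3 of 8 fits). Adrbk2, a receptor kinase, and Gria3, a glutamate receptor subunit, had log2 fold changes of -2.61 and -1.97. Gpd2, the mitochondrial glycerol phosphate dehydrogenase, fell from 286 ± 39.7 to 133 ± 21.6 CPM (-1.11 ± 0.15, edgeR adjusted p = 0.01). Hnf4g, a nuclear receptor related to Hnf4a, fell from 18.6 ± 4.85 to 6.64 ± 1.67 CPM (-1.49 ± 0.24, edgeR adjusted p = 0.022). Tnfrsf25, Pls1, Tent5a, 2210013O21Rik, Morc4, Ttbk1 and Zfp532 were also called lower, with log2 fold changes from -2.41 to -1.05. Among the genes of this paragraph, Ttbk1, Zfp532, 4930452B06Rik and Gpd2 held in all 8 fits without 1 mouse, and Gria3 held in 1.

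**Figure D3:**
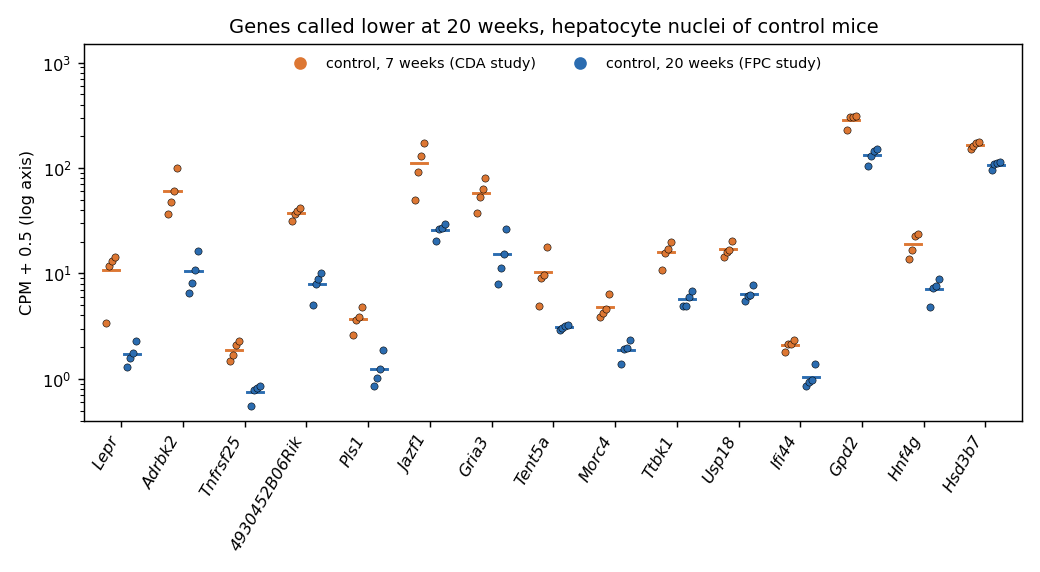
CPM plus 0.5 (log axis) of 15 genes called lower at 20 weeks, in each of the 8 control mice, with lines at the group means. For each gene the 20-week points lie under the 7-week points, and the low 7-week point of Lepr is mouse CDA_9867 at 2.91 CPM.

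Interferon response genes leaned lower. Of 27 tested, 2 fell and 0 rose, against 0.367% of all genes that fell. A negative value was found for 23 and a positive one for 4, against a positive value for 5571 of all 11998 tested genes. The list median was -0.34, against -0.03 for all genes. Usp18, which damps interferon signalling, had 5.7, 4.95, 7.27 and 5.59 CPM at 20 weeks and 13.9, 15.6, 20 and 16.1 CPM at 7 weeks, without overlap (-1.48 ± 0.16, edgeR adjusted p = 0.0036, held in all 8 fits). Ifi44 had 0.531 ± 0.233 against 1.6 ± 0.213 CPM (-1.60 ± 0.31, edgeR adjusted p = 0.042) and held in 1 of 8 fits. Irf7, a transcription factor of the response, separated fully with a log2 fold change of -0.87 but was not called (edgeR adjusted p = 0.078). In whole liver 1 of the 27 was called lower, against 0.183% of all tested genes, and the median was -0.31.

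With 1.53% of all tested genes called in either direction, most other lists held no call. This was the case for 17 of 26 pathway lists, among them the circadian clock (20 genes tested, median 0.29), sugar sensing and glycolysis (10, -0.73), fatty acid oxidation and fasting (21, -0.16), gluconeogenesis and amino acids (24, 0.20), the growth hormone and IGF axis (15, -0.03), p53 targets (12, -0.07), the acute phase (23, -0.09) and stress responses (21, -0.66). Arntl and Dbp, a clock activator and an output factor of opposite phase, stood at 85.2 ± 46.1 against 88 ± 52.6 CPM and at 73.2 ± 33.3 against 35.6 ± 22.2 CPM, with overlapping groups. Genes biased to male liver gave 0 calls of 20, with Hsd3b5 at 462 ± 177 against 509 ± 247 CPM, while 2 of 13 female-biased genes were called higher (1.17% of all tested genes), Cyp2a4 and Cyp3a44, both also counted among the P450 genes. The female-biased list had 0 calls in 5 of the 8 fits without 1 mouse (FPC_6816, FPC_6852, FPC_6952, CDA_9867 or CDA_10113) and 0 without mice CDA_9862 and CDA_9867 together. Of the pericentral and periportal genes, 0 of 14 and 0 of 14 were called, with medians of 0.07 and 0.10. Disease-associated genes gave 0 of 11, and Spp1, a gene raised in steatohepatitis, was at 1.63 ± 0.543 against 1.63 ± 0.728 CPM. The lack of a call does not show equal levels. DESeq2 called 2 of the 10 sugar-sensing genes lower, against 3.42% of all tested genes. It called 4 of the 24 gluconeogenesis and amino acid genes higher, against 4.54% of all tested genes.

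**Figure D4:**
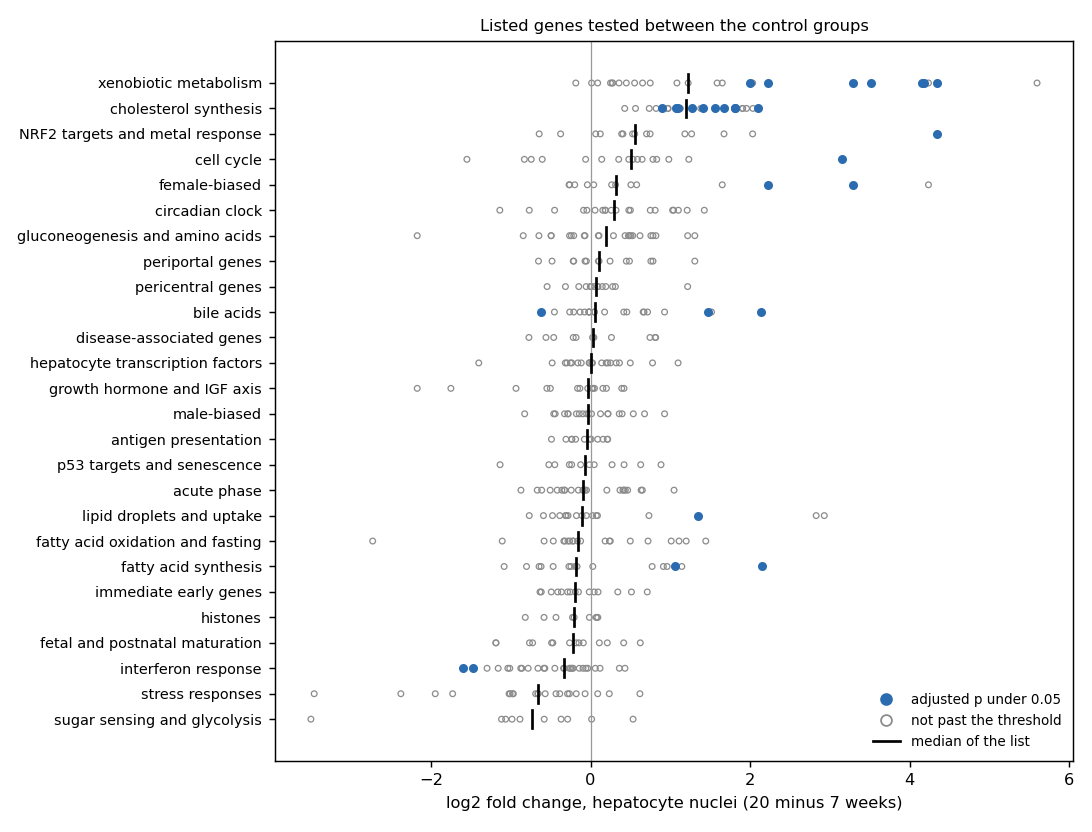
Log2 fold change (20-week minus 7-week control) of each tested gene of the 26 pathway lists in hepatocyte nuclei, ordered by list median (black bar), with called genes filled. The medians of the xenobiotic (1.22) and cholesterol (1.20) lists lie farthest to the right, and that of sugar sensing and glycolysis (-0.73) farthest to the left.

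Other called genes included some with low levels in 1 group. Fam19a2, a secreted chemokine-like protein gene, had 35.4, 33.8, 12.5 and 5.31 CPM at 20 weeks and 1.07, 0.711, 0.652 and 0.771 CPM at 7 weeks (4.75 ± 0.64, edgeR adjusted p = 0.011). Vtcn1, an inhibitory ligand of T cells, was at 11.2 ± 3.08 against 1.3 ± 0.383 CPM (3.10 ± 0.26, edgeR adjusted p = 0.002) and held in all 8 fits. Trpm8, a cold-sensing channel, had 3.54 ± 0.923 against 0.242 ± 0.25 CPM, and Slc13a2, a citrate and succinate transporter, 23.7 ± 6.18 against 2.95 ± 1.34 CPM. Cd1d1 and Cd1d2, which present lipids to T cells and lie next to each other, rose by 1.27 and 1.14 on the log2 scale, although the call of Cd1d2 held in 1 of 8 fits. Cd1d1 stood at 165, 164, 141 and 149 CPM against 63.4, 71.4, 60.5 and 60.7 CPM, a narrow spread in both groups (edgeR adjusted p = 0.002). Mki67, a proliferation marker, was the 1 called gene of 16 tested cell cycle genes, against 1.17% of all tested genes called higher. It was at 1.76 ± 0.72 against 0.197 ± 0.0639 CPM (3.15 ± 0.43, edgeR adjusted p = 0.0098), while Top2a had 0.622 ± 0.294 against 0.327 ± 0.171 CPM (edgeR adjusted p = 0.3).

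Whole liver nuclei of the same mice gave 137 called genes of 13119 (1.04%), 113 higher (0.861%) and 24 lower (0.183%). The 107 genes called in both made up 58.2% of the hepatocyte calls and 78.1% of the whole liver calls. Of the 184 hepatocyte calls, 183 were tested in whole liver and all 183 had the same sign there. As both preparations come from the same livers, this is not independent support. The hepatocyte calls that were higher had a median of 1.32 in hepatocyte nuclei and 1.13 in whole liver, and those that were lower had -1.03 and -0.61. Mki67 had 4.52 ± 1.17 against 3.89 ± 0.926 CPM in whole liver (0.21, edgeR adjusted p = 0.74), and Lepr 8.37 ± 1.67 against 16.7 ± 6.14 CPM (-1.0, edgeR adjusted p = 0.19).

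**Figure D5:**
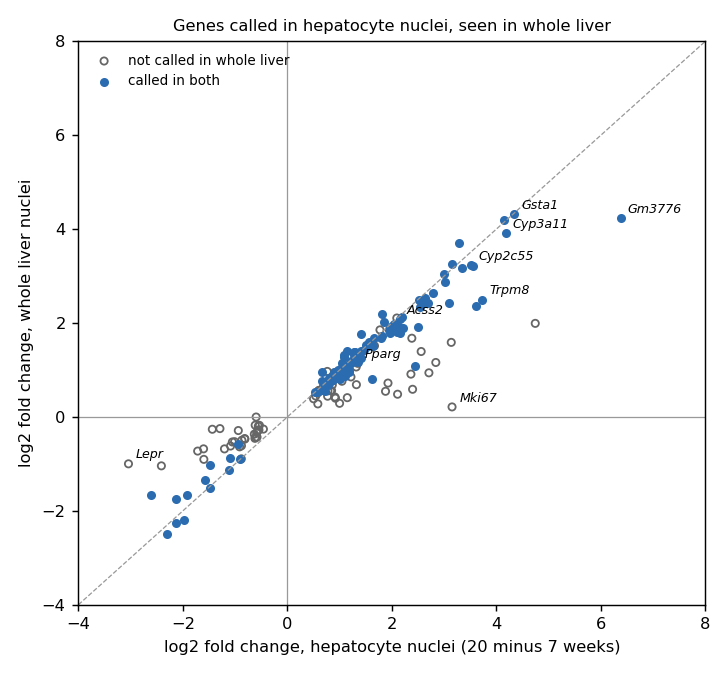
Log2 fold change (20-week minus 7-week control) in whole liver nuclei (y axis) against hepatocyte nuclei (x axis) for the 183 hepatocyte calls tested in both, filled where called in both. All points lie in the lower left or upper right quadrant. Gm3776 has the value farthest to the right, 6.38.

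A direct test of whether the group difference differed between hepatocyte and whole liver nuclei called 0 of 13270 genes in edgeR (455 at an unadjusted p under 0.05), and DESeq2 called 5. With the mouse number as a block, since both preparations of a number are labelled as 1 animal, 2 genes were called: Fam19a2 (edgeR adjusted p = 0.00025) and Adamtsl1 (0.0017), both with a larger difference in hepatocyte nuclei. The numbers did not pair cleanly, however. The hepatocyte library of mouse CDA_9862 deviated from its group like the whole liver library labelled CDA_9867 (r = 0.85 over 11952 genes) and not like its own (r = -0.22), and that of mouse CDA_9867 like the whole liver library labelled CDA_9862 (r = 0.76 against -0.29). The other 6 mice correlated best with their own number (r from 0.52 to 0.88). As CDA_9862 and CDA_9867 belong to 1 group, the comparison of groups does not depend on which label is right, but the block does: with the partners of these 2 mice exchanged it called 49 genes.

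Mice of 1 group differed from each other in ways the diet label does not give. The median SD of log2(CPM + 0.5) was 0.161 over 8783 genes in the 20-week group and 0.211 over 8846 genes in the 7-week group. In the 7-week group, mouse CDA_9862 stood apart for several genes, Cish and Igf1 being known to respond to growth hormone: Onecut1, a hepatocyte transcription factor, had 1081 CPM there and 24.5 to 55.9 CPM in the other 3, Cish, a feedback inhibitor of cytokine signalling, 62 CPM against 0.474 to 3.86 CPM, Hacl1 1069 CPM against 26.5 to 178 CPM, and Igf1 2539 CPM against 127 to 331 CPM. In whole liver the high values, with Onecut1 at 1056 CPM and Igf1 at 2694 CPM, were in the library labelled CDA_9867. In the 20-week group, Moxd1 had 0.0388, 0, 11.5 and 147 CPM, and Cyp2b9 181, 37.3, 2.35 and 1.07 CPM. Moxd1 was also uneven at 7 weeks, with 201 CPM in mouse CDA_9867 and 6.42 to 13.3 CPM in the others. The group means of such genes rest on 1 mouse, and none of those named in this paragraph was called.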

How the data were processed

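Nuclear total RNA was sequenced as 50-base pairs with a stranded kit and no poly-A selection, per the labels' protocols. The authors deposited unnormalized counts for 20105 RefSeq transcripts, which here stand for genes. STAR 2.4.2a, DESeq2 1.24.0 and mm10 are named in the submitters' processing notes, while the counting tool and strand setting are not given in the sources used here. For 94.7% of genes the counted length is the whole gene, so introns are included. The authors' deposited table of log2 fold changes and adjusted p-values sets each diet against its own control, and was used for symbols, positions and the values credited to it. Symbols came from it for 13147 identifiers and from RefSeq for 6879, leaving 79 without.

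Counts were filtered (filterByExpr), TMM-scaled and tested with edgeR 4.0.16 (robust quasi-likelihood, R 4.3.3) on the 8 control libraries of a fraction, with an adjusted p threshold of 0.05. SE is the log2 fold change divided by the root of F. Filtered genes were not tested: 11998 of 20105 passed in hepatocyte nuclei. Named genes are the 10 largest called changes per direction (mean CPM at least 1), up to 3 called genes per list, the 5 smallest p per direction, a panel of 30 genes and the 5 most variable genes per group. Others were named after their values were seen, and the results of some listed genes are not reported here. The members and lists were chosen with earlier results of these data known. Alternatives were RLE scaling, no filter, a stricter filter, DESeq2 1.42.0, all 22 libraries of a fraction, leaving out each mouse, and mouse blocks. The animal number in the titles pairs the 2 preparations of a mouse, which held for 6 of 8 mice. Scripts were tested on simulated data.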

Additional observations from a re-analysis of the deposited data

Results flagged for a closer look

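In 12 of 290 groups of 4 mice, over the genes named here, 1 mouse lay apart from the other 3 by more than Dixon's 95% limit on the gap as a share of the group's range, on the log2(CPM + 0.5) scale. Chance flags about 1 group in 20, so this number is no more than chance gives. In the 20-week mice, Cyp2b10 was 12.3 CPM in mouse FPC_6816 (others 0.517 to 0.978), Gm3776 2.36 CPM in mouse FPC_6816 (0.825 to 0.954), Thsd7a 44 CPM in mouse FPC_6953 (1.26 to 2.07) and Lss 97.7 CPM in mouse FPC_6952 (56.7 to 61.9). Ces2a was low in mouse FPC_6852, at 60.5 CPM (92.3 to 95.4).

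In the 7-week mice, mouse CDA_9862 had 5.55 CPM of Cd36 (others 1.93 to 2.3), 29.2 CPM of Socs2, a feedback inhibitor of growth hormone signalling (1.62 to 2.74), and the only count of Gm3776, 0.0397 CPM. Mouse CDA_10110 had 2.72 CPM of Spp1 (1.23 to 1.29) and 227 CPM of Gpd2 (302 to 309). Mouse CDA_10113 had 51.6 CPM of Creld2, a gene of the unfolded protein response (4.61 to 6.36). Lepr was at 2.91 CPM in mouse CDA_9867 (11.4 to 13.9).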

How the results depend on the processing

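RLE scaling, no filter and the stricter filter left the counts of calls close to those reported (185, 182 and 179 in hepatocyte nuclei), with 182, 167 and 173 of the 184 calls shared. None of the 145 named genes tested reversed, and 7 of the 82 called lost the call with no filter. For the hepatocyte comparison (184 calls, 140 higher and 44 lower, 122 at least 2-fold), DESeq2 gave 955 (545 and 410, 315) and all 22 hepatocyte libraries in 1 fit 525 (354 and 171, 260). For whole liver (137 calls, 113 and 24), DESeq2 gave 460 (317 and 143) and all 22 libraries 449 (287 and 162). Leaving out 1 mouse gave 67 to 193 hepatocyte calls (58 to 142 higher, 9 to 51 lower, 57 to 137 at least 2-fold) and 77 to 169 in whole liver (70 to 134, 6 to 35). Fewest whole liver calls were left without mice FPC_6816 (77), FPC_6852 (78) and FPC_6952 (81). Of the 82 named genes called, 44 lost the call without at least 1 mouse. Leaving out both CDA_9862 and CDA_9867, chosen after seeing the data, gave 67 hepatocyte calls (53 higher, 14 lower, 62 at least 2-fold) and 64 in whole liver (55 and 9), and 48 of the 82 named genes lost the call.

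The test between the preparations called 0 genes in edgeR and 5, all higher, in DESeq2. The replicate block called 2 (both higher), the block without mice CDA_9862 and CDA_9867 called 14 (12 higher and 2 lower) and the block with the whole liver partners of these mice exchanged called 49 (45 higher and 4 lower). The last 2 fits were added after seeing the data. Some of these fits held fewer mice, and the causes of the changed counts were not tested in any of them.

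Age, diet duration, study and batch cannot be told apart, and with 4 mice a group genes of moderate spread, such as Sqle and Por, missed the threshold.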

Other observations

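Zinc finger genes on distal chromosome 4 were higher at 20 weeks in 2 neighbouring stretches (gaps of at most 500000 bases between called genes). Each stretch was set by its outermost called genes, so its ends were called by construction. All 3 genes tested between positions 145670697 and 146468233 (mm10) were called: Gm13242, Zfp600 and Gm13139, with log2 fold changes of 3.60, 3.03 and 2.10. Zfp600 had 3.95, 4.37, 2.86 and 2.42 CPM at 20 weeks and 0.436, 0.44, 0.381 and 0.386 CPM at 7 weeks, without overlap (edgeR adjusted p = 0.002). Between positions 147021850 and 148038767, 5 of 11 tested genes were called higher: Rex2, Gm13152, 2610305D13Rik, Gm13157 and Clcn6, a chloride transporter gene. The 6 others there had a median of -0.13, and Zfp933 stood at 53.8 ± 3.12 against 56.3 ± 9.86 CPM. Whether reads were shared among these related genes was not tested.

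The authors' deposited table compares each diet with its own control group, and so shares the control libraries used here. In the authors' deposited table, Cyp3a11 had a log2 fold change of -1.13 with advanced disease on the FPC diet (adjusted p = 0.15) and of 2.16 on the CDAHFD diet (0.0018). With mild disease the authors' deposited table gave Cyp3a11 -1.98 (adjusted p = 0.0035) and 1.36 (0.043). The values that follow are those of advanced disease. Gsta2 had -1.10 (adjusted p = 0.076) and 3.13 (2e-08) in the authors' deposited table, and Lepr 4.69 (1.9e-28) and -0.60 (0.22). Ces2a had -3.37 (adjusted p = 2.8e-22) and -2.25 (1.1e-09) in the authors' deposited table, and Acss2 -2.67 (9.7e-19) and -1.94 (2.6e-10).

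Fold changes in hepatocyte nuclei moved slightly with counted length, which for 94.7% of genes is the whole gene. The median log2 fold change was -0.17 among tested genes with a counted length up to 11183 bases and 0.08 among those over 61208 bases. Of 4 classes of equal size by length, over all genes, the shortest took 1.97% ± 0.10 of counts in the 20-week and 2.27% ± 0.19 in the 7-week hepatocyte libraries (SD, n = 4; exact two-sided permutation p = 0.057, adjusted 0.34 over 12 library measures, the smallest possible being 0.029). The longest class took 66.1% ± 0.43 and 66.3% ± 0.85 in hepatocyte libraries (exact permutation p = 0.66). In whole liver the shortest class took 1.97% ± 0.19 at 20 weeks and 2.01% ± 0.16 at 7 weeks (exact permutation p = 0.71). The longest class there was lower at 20 weeks, with 67.0% ± 0.62 against 68.2% ± 0.92 (exact permutation p = 0.057, adjusted 0.34). The part of gene length in the calls was not tested. Genes called higher had a median length of 33225 bases, those called lower 24261 and all tested genes 25348.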
